A study of Homo sapiens with 2 samples.

Results

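To describe ETV4 binding around the NRF2 antioxidant pathway, the ChIP-seq peaks near 9 genes were collected from 1 anti-Flag immunoprecipitate. The genes were chosen by function, as NRF2 (gene NFE2L2), its inhibitor KEAP1, and the antioxidant genes NQO1, HMOX1, GCLC, GCLM, TXNRD1, SLC7A11 and AKR1C1. Earlier results of these data were known at that choice. Every peak within 20 kb of a gene's RefSeq span was taken, which gave 28 peaks of 54389 in the list, for 9 of the 19974 protein-coding genes on the chromosomes that hold peaks. The cells were A549, an established human lung adenocarcinoma line, in which endogenous ETV4 was silenced by an shRNA and a Flag-ETV4 plasmid was transfected. The experiment comprised that immunoprecipitate and 1 Input library from A549 cells, so there was no replicate, no untransfected control and no test between conditions. The Input entered only as the control level in each peak's fold enrichment. The sample labels name a Sigma Flag antibody and the study's methods one from CST. The tag was on a transfected protein, so the peaks are those of exogenous ETV4.

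NRF2 is a transcription factor that binds antioxidant response elements together with a small MAF protein. KEAP1 holds NRF2 in the cytoplasm and hands it to the CUL3 ubiquitin ligase, and oxidants or electrophiles break that hold. A549 is known as a line with mutated KEAP1 and high NRF2 activity; neither the genotype nor RNA was measured here. ETV4 belongs to the PEA3 group of ETS factors, which recognise DNA around the core GGAA.

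The promoter windows of 4 genes are shown because they span the range of binding at gene starts, from the strongest start peak, NFE2L2, through GCLM and NQO1, where the summit lay close to the start, to AKR1C1, which had no peak. Each window is RefSeq sequence on GRCh38.p14, 250 bases before the start to 50 after it, read 5′ to 3′ in the direction of transcription. Capitals mark the ETS core GGAA and the antioxidant response element letters TGANNNNGC, each on either strand.
NFE2L2, outer start, chr2:177264678-177264977, minus strand: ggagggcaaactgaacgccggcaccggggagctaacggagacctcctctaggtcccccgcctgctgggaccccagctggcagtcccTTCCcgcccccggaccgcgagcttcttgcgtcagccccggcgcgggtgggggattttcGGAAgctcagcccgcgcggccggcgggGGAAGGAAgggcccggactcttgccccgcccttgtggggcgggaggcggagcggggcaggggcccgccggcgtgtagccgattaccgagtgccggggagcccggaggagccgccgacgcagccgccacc
GCLM, chr1:93909381-93909680, minus strand: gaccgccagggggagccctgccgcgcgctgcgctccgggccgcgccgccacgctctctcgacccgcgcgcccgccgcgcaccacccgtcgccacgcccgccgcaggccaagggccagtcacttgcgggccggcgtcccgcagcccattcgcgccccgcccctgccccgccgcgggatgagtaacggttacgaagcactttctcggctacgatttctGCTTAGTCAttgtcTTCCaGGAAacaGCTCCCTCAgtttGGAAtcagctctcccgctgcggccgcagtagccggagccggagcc
NQO1, chr16:69726511-69726810, minus strand: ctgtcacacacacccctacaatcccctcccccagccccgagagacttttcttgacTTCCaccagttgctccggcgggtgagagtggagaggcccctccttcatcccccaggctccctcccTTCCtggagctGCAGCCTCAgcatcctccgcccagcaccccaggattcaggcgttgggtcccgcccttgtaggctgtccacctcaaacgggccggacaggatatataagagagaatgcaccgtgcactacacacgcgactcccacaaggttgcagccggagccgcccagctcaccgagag
AKR1C1, chr10:4963165-4963464, plus strand: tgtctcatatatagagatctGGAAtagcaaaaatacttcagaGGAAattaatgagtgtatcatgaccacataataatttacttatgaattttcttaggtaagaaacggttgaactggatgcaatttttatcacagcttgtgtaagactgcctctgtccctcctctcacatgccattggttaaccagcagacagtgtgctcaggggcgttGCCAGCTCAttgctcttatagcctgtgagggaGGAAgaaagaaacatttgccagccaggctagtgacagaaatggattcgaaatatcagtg

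In the NFE2L2 window, 4 ETS cores lay between 164 and 75 bases before the start, and the last pair stood directly side by side. The summit of the peak was 57 bases from the nearest of them. The GCLM window held 3 cores, at 20 and 15 bases before the start and just after it, interleaved with antioxidant response element letters at 34 and 8 bases before the start. The NQO1 window held 2 cores and 1 stretch of antioxidant response element letters, and its summit was 58 bases from the nearer core and 47 bases from that stretch. The AKR1C1 window also held 3 cores and 1 such stretch, at 41 bases before the start, without a peak. Its GC content was 41.0%, against 53.7% to 76.3% in the other 9 windows of the members and a median of 62.3% over all protein-coding promoter windows.

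The promoter table had entries for 7 of the 9 genes, 3 of them with 2 starts, so 10 windows were searched. HMOX1 and SLC7A11 had no entry. All 10 windows held GGAA, as did 95.1% of the 22012 protein-coding promoter windows, so this core alone does not set the members apart. The longer ETS letters CGGAAGT were in none of the 10 windows, against 8.59% of all windows. They were in 13.7% of the windows that overlapped a peak and 2.52% of those that did not. The windows with a peak also had a higher median GC content, 67.3% against 54.3%, and its part in this contrast was not tested. CCGGAAGT, which contains the former letters, was likewise in none, against 5.32%. Antioxidant response element letters were in 7 of the 10 windows, against 41.9% of all. The AP-1 letters TGANTCA were in none, against 6.16%. A match describes letters and is not a binding site.

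**Figure D1:**
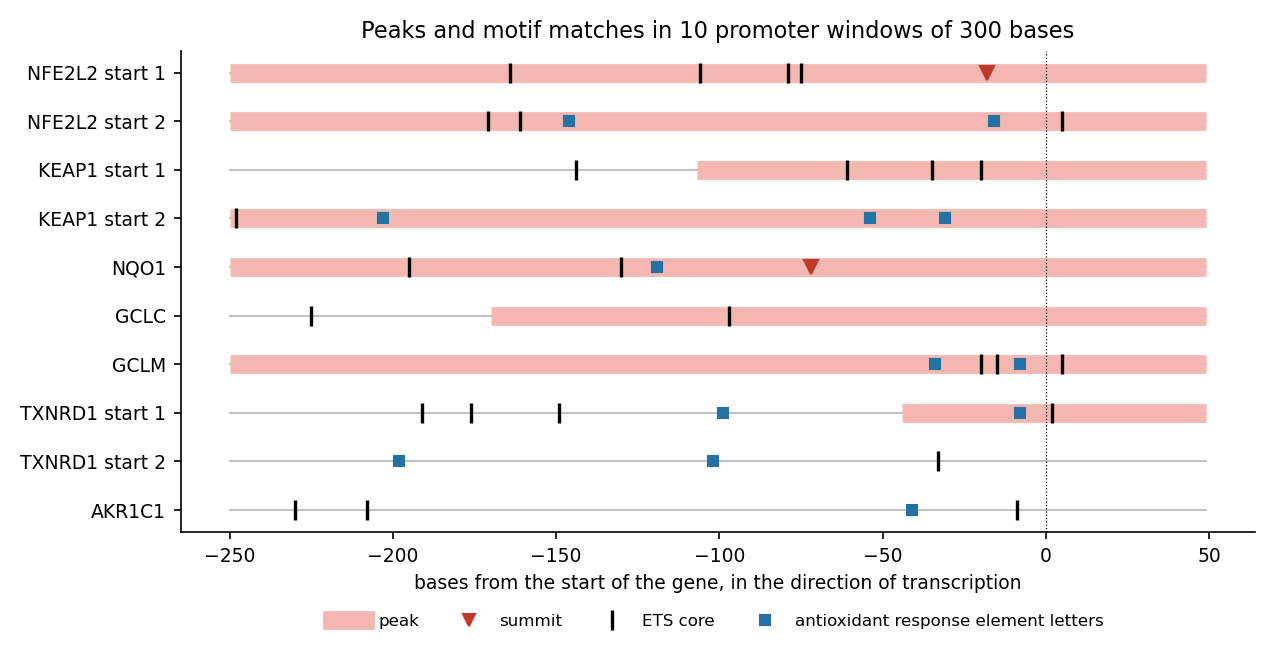
Positions of the peak (pink band), its summit (red triangle), ETS cores (black ticks) and antioxidant response element letters (blue squares) in 10 RefSeq promoter windows of 7 genes, in bases from the start. Peaks covered all 300 bases in 5 windows, part of 3 windows, and none of the AKR1C1 window or the inner TXNRD1 window.

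ETV4 peaks were found near most of these genes, strongest at NFE2L2 itself. A peak lay within 20 kb of 8 of the 9 genes, AKR1C1 being the exception, against 86.3% of all protein-coding genes. At gene starts, 7 of 9 had a peak within 1 kb, against 62.6% of protein-coding genes, and 5 of 9 had one with a fold enrichment over 10, against 45.6%. These shares are near the background and say nothing particular about the members. For HMOX1 and SLC7A11, which had no promoter entry, either end of the gene was taken as the start, in the members and in the background alike.

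The 28 peaks had fold enrichments from 4.46 to 50.6 with a median of 9.27, against 9.63 over all peaks. Their −log10 q ranged from 4.54 to 199, their widths from 230 to 2041 bp, and their summit pileups from 11 to 135 fragments with a median of 27, against 26 over all peaks. The control level at their summits was 1.28 to 3.38, against a median of 1.67 over all peaks, and 3 of the 28 stood at the lowest control level of the list. Of the 28 peaks, 9 were at starts, 8 in gene bodies and 11 in the flanks. The peaks at starts were wider, with a median of 982 bp against 533 bp for the other 19, and had a median fold of 13.0 against 8.96. The width contrast is not particular to the members. The median width was 992 bp for peaks at protein-coding gene starts and 519 bp over all peaks. By search length the members had 3.75 peaks per 100 kb, against 3.03 around all protein-coding genes, and per gene both medians were 2 peaks. In the flanks, 6 of the 11 summits were nearer to another gene's start than to the member's, and over all 28 peaks 7 were.

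**Figure D2:**
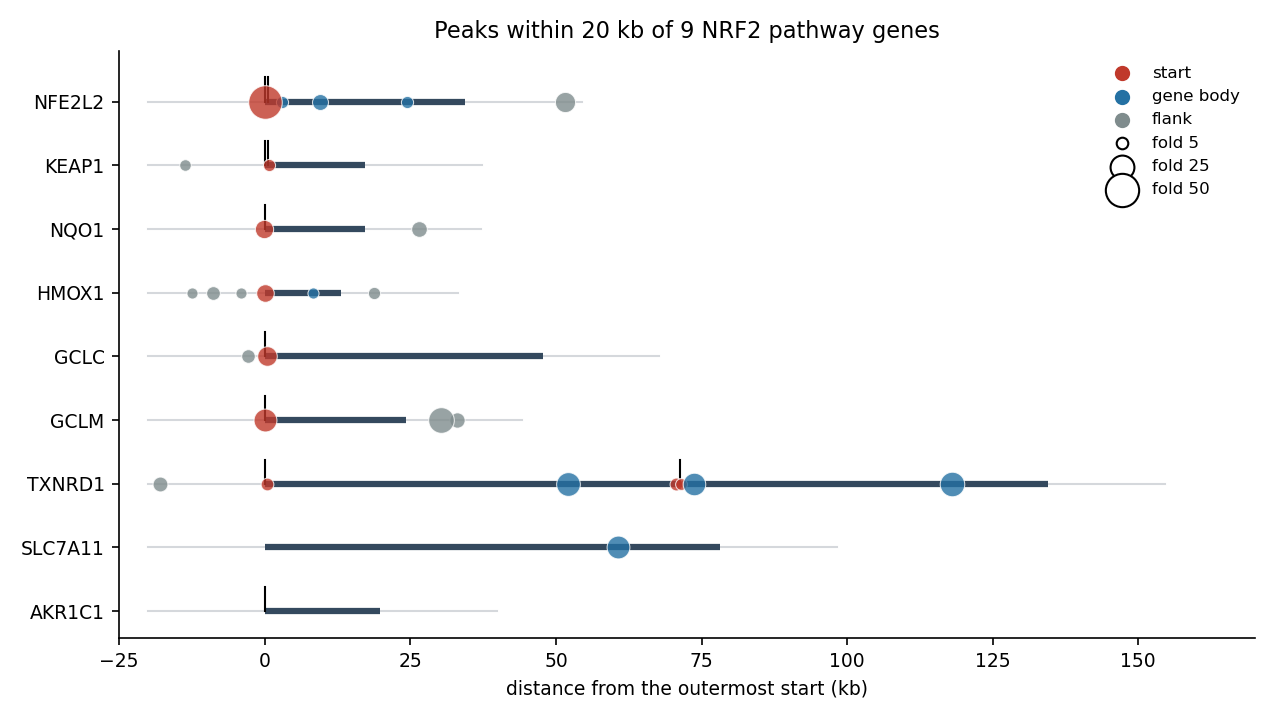
Summits of the 28 peaks by distance in kb along 9 genes, with bars for gene spans, thin lines for the 20 kb flanks, ticks for starts in the promoter table, and circle size for fold enrichment. Genes run in the direction of transcription from the outermost start, except HMOX1 and SLC7A11, which run along the chromosome from their lower end. The largest circle is at the start of NFE2L2, and the line of AKR1C1 is empty.

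NFE2L2, which encodes the transcription factor NRF2, had the strongest and widest peak of all 28. On chromosome 2 it ran from 177263357 to 177265397, 2041 bp, and covered both annotated starts. Its fold enrichment was 50.6 and its −log10 q 199, with 135 fragments at the summit (95% counting interval, exact Poisson, 113 to 160) and a control level of 1.69. That fold was above 94.1% of all peaks and above 92.5% of the protein-coding genes that had a start peak. The summit at 177264745 was 18 bp upstream of the outer start and 614 bp upstream of the inner one. A further 3 peaks lay in the gene body, with folds of 10.5, 5.62 and 5.61, at 8.90, 23.9 and 2.38 kb inside the inner start. The fifth, with a fold of 17.5, lay in the flank beyond the 3′ end, 458 bp from the start of HNRNPA3, which encodes an RNA-binding protein.

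KEAP1, the adaptor that targets NRF2 for degradation, had the lowest fold when each member was ranked by its strongest start peak. The peak on chromosome 19 from 10502403 to 10503463 was 1061 bp wide and had a fold of 5.60 and a −log10 q of 10.1. Its summit held 22 fragments (13.8 to 33.3) over a control level of 3.11, and was 206 bp inside the inner start and 791 bp inside the outer one. Its fold was above 10.03% of the protein-coding genes that had a start peak. The counting intervals at the start of NFE2L2 and of KEAP1 did not overlap. The other peak near KEAP1, with a fold of 4.96 and 11 fragments, was 409 bp from the start of S1PR5, a sphingosine 1-phosphate receptor gene.

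GCLC and GCLM encode the catalytic and the modifier subunit of glutamate-cysteine ligase, the rate-limiting enzyme of glutathione synthesis. Both had a start peak over the median fold of all peaks. Among the protein-coding genes that had a start peak, the fold at GCLC was above 46.7% and that at GCLM above 62.0%. The start of GCLM on chromosome 1 was covered by a peak (93908560 to 93909862) of fold 23.0 and −log10 q 89.9, and its summit, 77 bp past the start, held 84 fragments (67.0 to 104) over a control level of 2.70. The peak at GCLC on chromosome 6 (53544290 to 53545271) reached a fold of 16.4 and a −log10 q of 52.5, and its summit, 330 bp inside the start, held 56 fragments (42.3 to 72.7) over 2.47. Those intervals of the pileup overlapped, which alone does not show whether the difference between the subunits exceeds counting error. A weaker peak, with a fold of 7.31 and 31 fragments, lay 2954 bp upstream of the GCLC start. The peak of highest fold near GCLM, 29.1, was not at that gene but 58 bp from the start of DNTTIP2, and another, with a fold of 9.57, was 2805 bp from it.

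SLC7A11, the cystine transporter subunit that supplies cysteine for glutathione, had no peak within 1 kb of either end. Its only peak, on chromosome 4 from 138224561 to 138225095, was inside the gene, 17.6 kb from the end at 138242349 and 60.7 kb from the other end. This peak was nevertheless strong, with a fold of 22.8, a −log10 q of 60.01 and 51 fragments (38.0 to 67.1) at the lowest control level of the list, 1.28. With 1 peak in the 118 kb searched, SLC7A11 had the lowest density, 0.846 peaks per 100 kb, of the 8 members with a peak.

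NQO1, a quinone reductase and a classical NRF2 target, had a start peak of middle strength. On chromosome 16 it ran from 69726076 to 69727280 with a fold of 14.2 and a −log10 q of 37.8. The summit was 72 bp upstream of the start and held 42 fragments (30.3 to 56.8) over a control level of 2.03. The remaining peak, with a fold of 10.1 and 22 fragments, lay in the flank inside NFAT5, 4546 bp from an end of that gene, which encodes an osmotic stress factor.

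HMOX1, the inducible haem oxygenase, had 6 peaks in 53.1 kb, and its density of 11.3 peaks per 100 kb was the highest of the 9 genes. The strongest, on chromosome 22 from 35380846 to 35381434, had a fold of 13.0, a −log10 q of 30.2 and 34 fragments (23.5 to 47.5) over a control level of 1.69. Its summit was 85 bp inside the gene end at 35381096, which is the transcribed start by common knowledge of this gene. HMOX1 is known for distal enhancers upstream of its promoter that NRF2 and its competitor BACH1 bind. Outside that end lay 3 weaker summits. The nearest, in a peak from 35376903 to 35377211, was 4026 bp away with a fold of 4.46 and 14 fragments (7.65 to 23.5). The next, from 35371981 to 35372970, was 8927 bp away with a fold of 7.44 and 16 fragments (9.15 to 26.0). The farthest, from 35368372 to 35368742, was 12488 bp away with a fold of 4.46 and 11 fragments (5.49 to 19.7). Their pileup intervals overlapped each other, and whether these peaks coincide with the known enhancers was not tested. A peak in the gene body had a fold of 4.50 and 11 fragments. The last, with a fold of 5.68, was 230 bp from MCM5, which encodes a subunit of the replicative helicase, and 5703 bp beyond the other end of HMOX1.

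TXNRD1, the cytosolic thioredoxin reductase, had 7 peaks, the largest number of the 9 genes, over the longest search window, 174.5 kb. Its start peaks were weak. The peak at the outer start on chromosome 12, from 104215735 to 104216448, had a fold of 6.24 and 20 fragments (12.2 to 30.9). The inner start, at 104287032, lay between a peak with its summit 709 bp upstream, with a fold of 6.40 and 27 fragments (17.8 to 39.3), and one with its summit 287 bp downstream, with a fold of 5.19 and 16 fragments (9.15 to 26.0). Neither of these reached into the 300 bases around that start. The stronger peaks were inside the gene. From 104333434 to 104333989 the fold was 26.5 with 97 fragments (78.7 to 118), 46.7 kb downstream of the inner start. The summit of that peak was nearer to an end of EID3, 28.5 kb away, than to either TXNRD1 start. From 104267394 to 104268072 the fold was 24.7 with 56 fragments (42.3 to 72.7), at a summit shared with the annotated antisense gene TXNRD1-AS1. From 104288689 to 104289714 it was 22.2 with 81 fragments (64.3 to 101), 2417 bp downstream of the inner start. The lower limit of each of these 3 pileups was above the upper limit of every start peak of the gene. A flank peak 17.9 kb upstream of the outer start had a fold of 8.96.

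AKR1C1, an aldo-keto reductase of the ketosteroid family that is strongly induced by NRF2, had no peak in its span or within 20 kb, as was the case for 13.7% of protein-coding genes. The nearest peak, on chromosome 10 from 5041000 to 5041599, was 57.7 kb beyond the gene and had a fold of 25.4. On the other side the nearest, from 4825922 to 4826609 with a fold of 6.37, was 137 kb away. The stretch without a peak was 214 kb long, against a median of 18.7 kb between consecutive peaks, and 4.49% of such stretches were at least as long. These values count each stretch once, whatever its length. A given position falls more often in a long stretch, so they do not give how often a gene lies in one. AKR1C2 and AKR1E2 also touched the stretch around AKR1C1, wholly or in part. AKR1C1 and AKR1C2 are close paralogs, and how reads that match both were counted is not given in the sources used here, so the absence of a peak is uncertain.

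**Figure D3:**
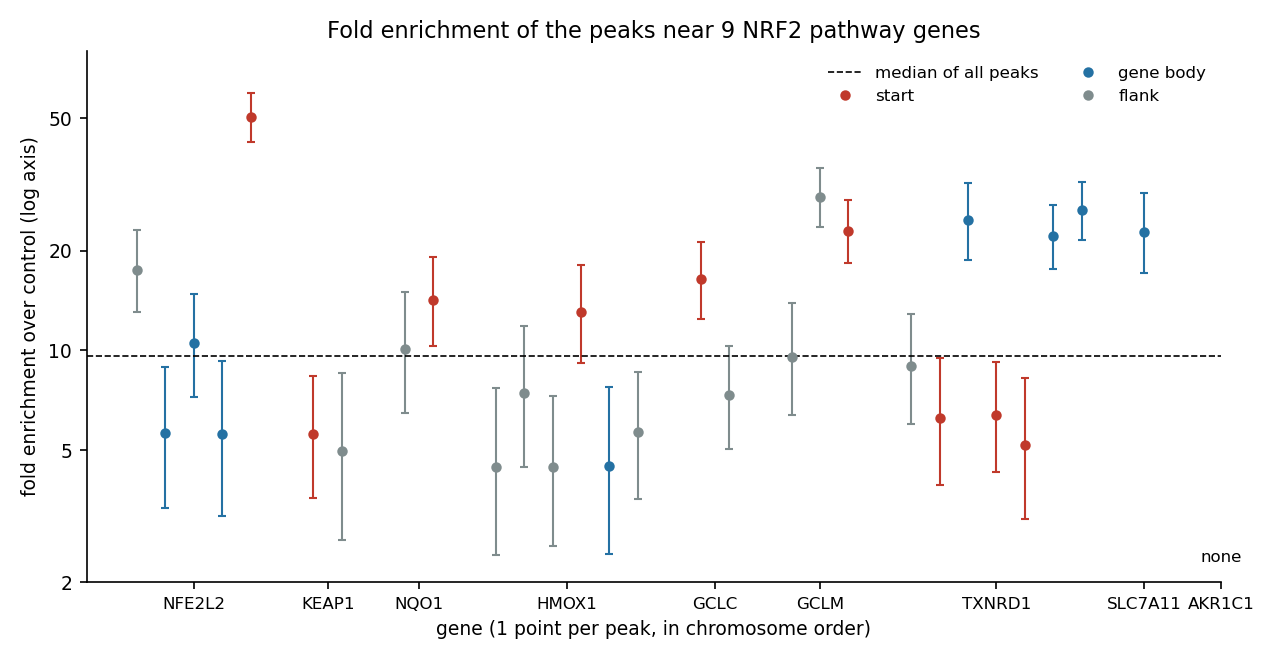
Fold enrichment of the 28 peaks on a log axis, grouped by gene and coloured by place, with bars for the 95% counting interval of the pileup at a fixed control level, and a dashed line at the median of all peaks, 9.63. The start peak of NFE2L2 stands above all others, and the 3 gene-body peaks of TXNRD1 above its start peaks.

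Ordered by the strongest peak at the start, NFE2L2 (50.6) was followed by GCLM (23.0), GCLC (16.4), NQO1 (14.2), HMOX1 (13.0), TXNRD1 (6.40) and KEAP1 (5.60). The counting interval of the fold was taken from the pileup at a fixed control level. It was 42.5 to 59.8 for NFE2L2 and 18.4 to 28.4 for GCLM, the only neighbours whose intervals did not overlap. The intervals of all later neighbours overlapped, from GCLC (12.5 to 21.2) down to KEAP1 (3.60 to 8.35). Those of HMOX1 (9.13 to 18.0) and TXNRD1 (4.30 to 9.21) overlapped only narrowly. Overlap alone does not show that counting error covers a difference. The median over these 7 genes was 14.2, against 17.8 over the protein-coding genes with a start peak, and 5 of the 7 were below that value.

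**Figure D4:**
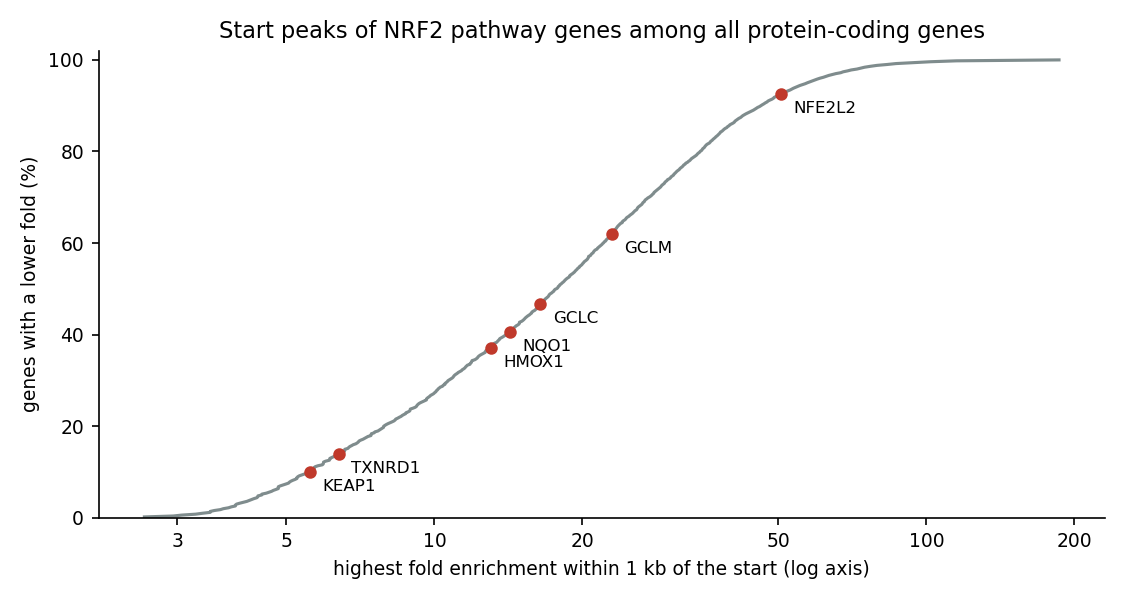
Highest fold enrichment within 1 kb of the start (log axis) against the share of protein-coding genes with a lower value, among genes with such a peak. The grey line is all such genes and the red points are 7 members, from KEAP1, above 10.03% of them, to NFE2L2, above 92.5%.

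The wider pathway was described with a list of 51 other genes in 6 groups by role, also chosen with earlier results of these data known. A start peak, within 1 kb, was present in 41, against the 62.6% of all protein-coding genes given above, and 34 had one with a fold over 10, against 45.6%. For 13 of the 51 without a promoter entry, either end was counted. Among the other 38, 29 had a start peak, against 64.5% of the protein-coding genes with a promoter entry. The median fold of the 41 genes was 18.9.

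The group of regulators and partners held 10 genes other than the members: CUL3, RBX1, SQSTM1, BACH1, MAFF, MAFG, MAFK, NFE2L1, BTRC and GSK3B. All 10 had a start peak, against 62.6% of all protein-coding genes. Their folds ran from 8.59 to 51.7. For MAFK and BTRC, which had no promoter entry, either end was counted. The groups are short lists, so these counts are descriptions and were not tested. The highest was at GSK3B, a kinase that marks NRF2 for degradation, with 129 fragments against 135 at NFE2L2. CUL3, the scaffold of the ligase that KEAP1 recruits, had a fold of 36.4, and BACH1, the repressor at antioxidant response elements, 8.59. The small MAF partners had 42.7 at MAFG, 37.2 at MAFF and 13.9 at MAFK. The fold at KEAP1, 5.60, was lower than each of these 10, but its pileup interval of 13.8 to 33.3 overlapped those of BACH1 (16.2 to 36.9) and RBX1, the ring subunit of that ligase (15.4 to 35.7).

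Of 11 other glutathione genes, 8 (72.7%) had a start peak, near the 62.6% of all protein-coding genes. The highest was at GPX4, which reduces lipid hydroperoxides, with a fold of 41.1. GPX2, a glutathione peroxidase, MGST1, a membrane glutathione transferase, and ABCC2, an export pump, had none. SLC3A2, which encodes the partner chain of SLC7A11, had a start peak with a fold of 21.2. All 5 other thioredoxin genes had one, with folds from 17.6 to 33.3, the highest at TXN, thioredoxin itself. The TXNRD1 start, at 6.40, was below all 5.

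Of 6 genes that supply NADPH, 5 had a start peak, against 62.6% of all protein-coding genes. ME1, malic enzyme, had none. Of 13 other genes for quinone and carbonyl detoxification, 9 (69.2%) had one, near that share. The highest was at PTGR1, a reductase of prostaglandins and alkenals, with a fold of 35.1. The 4 without were AKR1B1, AKR1C2, AKR1C3 and ALDH3A1, of which 3 are aldo-keto reductases like AKR1C1. Another aldo-keto reductase of the list, AKR1B10, had a start peak with a fold of 21.5, counted at either end. Near AKR1C3, a peak with a fold of 25.4 lay 7.47 kb from the start. The uncertainty about reads that match both AKR1C1 and AKR1C2 applies here too. Of 6 other haem and iron genes, 4 (66.7%) had a start peak, again near the 62.6% of all protein-coding genes. The highest was at SLC48A1, a haem transporter, with a fold of 44.3. BLVRB, a biliverdin reductase, and FECH, ferrochelatase, had none.

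**Figure D5:**
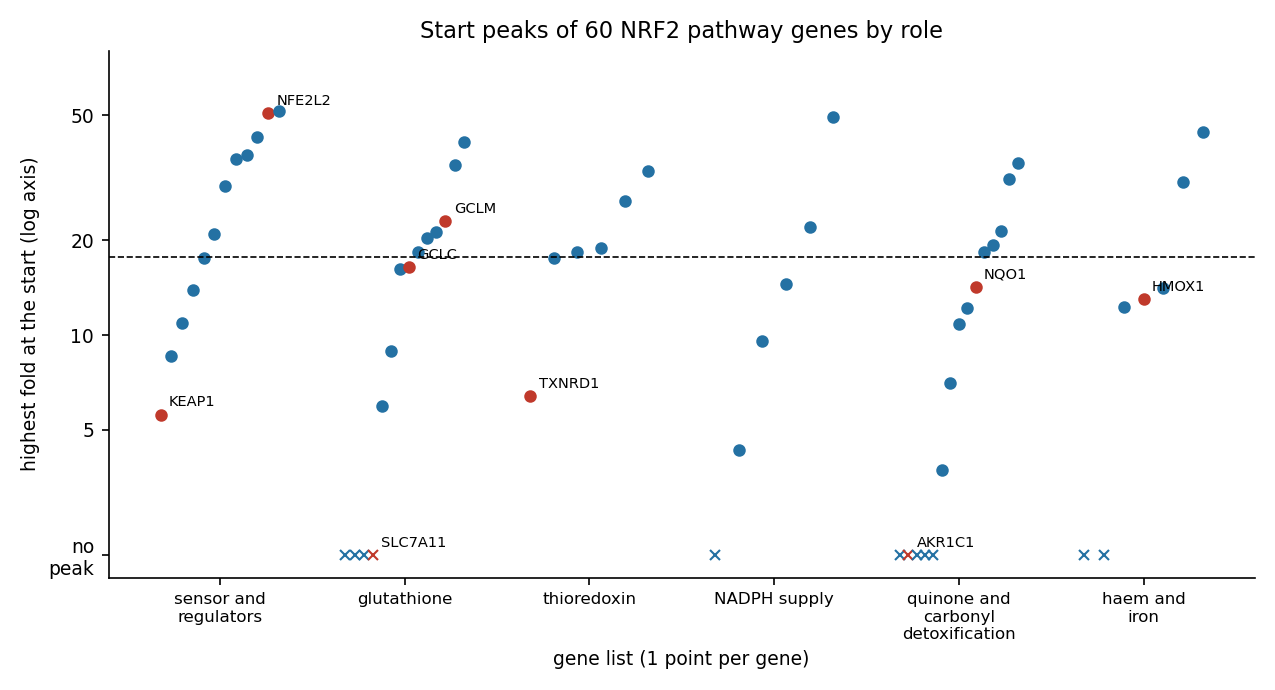
Highest fold enrichment within 1 kb of the start (log axis) for 60 pathway genes in 6 groups, 9 members in red and 51 others in blue, with crosses for genes without a start peak and a dashed line at the median of all protein-coding genes with one, 17.8. All genes of the regulator and thioredoxin groups have a start peak, and the largest number of crosses, 5, is in the detoxification group.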

How the data were processed

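The anti-Flag ChIP-seq was analysed from the authors' peak list. The submitters' processing notes name Bowtie2 2.4.1, SAMtools, MACS2 2.2.7.1 and deepTools 3.5.0 with hg38. Parameters and the treatment of duplicate and multiply mapped reads are not given in the sources used here. The authors called peaks on 1 library against the Input, without pooling. Per the narrowPeak layout, the deposited list gives fold enrichment as a ratio, and the −log10 p and −log10 q values at the summit. The deposited display score was not used.

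Peaks were matched to RefSeq genes on GRCh38.p14 by any base within 20 kb of the span or 1 kb of a start. Starts and sequences came from a RefSeq promoter table. Pileup and control level at the summit were solved from the deposited fold (pseudocount 1) and the Poisson p. All 54389 pileups (100%) were whole to within 0.01, and the procedure was tested on simulated data. Intervals are exact Poisson 95% and cover counting error only. No test between conditions was possible. The members and lists were chosen with earlier results of these data known. Named genes are the members, genes nearest to their peaks, and, per list, the gene of highest start fold and each without a start peak; others in the lists were named after their values were seen. The gene of highest start fold in the NADPH list is not reported here. Values were computed with scipy 1.17.1, pandas 2.3.3 and numpy 2.4.6 under Python 3.11.15, and drawn with matplotlib 3.10.9.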

Additional observations from a re-analysis of the deposited data

How the results depend on the processing

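Stricter thresholds on fold or −log10 q, placement by summits, other windows and either gene end left the number of members with a peak within 20 kb at 7 or 8 and with a start peak at 5 or 7, of 9. Both lower values came with a fold over 10, under which KEAP1 had no peak. The number of peaks moved from 28 to 13 with a fold over 10, because fewer peaks were counted, and to 17 over the gene span alone, because less sequence was searched. Start peaks in the wider list numbered 34 to 42 of 51. Of the 55 recomputed highest folds of single members, 52 stayed within counting error. The other 3 were NFE2L2 (120) and KEAP1 (9.30) in a window of 50 kb, and GCLM (23.0) over its span alone. A fold threshold cannot alter a highest fold that passes it, so those values were fixed in advance. The −log10 q threshold, summit placement and the 10 kb window returned the same values. The count of 52 is therefore no measure of stability. No paired analysis was possible because each group held 1 library. Depth limits the weakest peaks most, since a summit of 11 fragments has an interval of 5.49 to 19.7.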

Other observations

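The following peaks were picked after their values were seen, and are given as values. The strongest peak within 50 kb of any of the 9 genes was upstream of NFE2L2 and outside the 20 kb limit. On chromosome 2 from 177312930 to 177313636, it had a fold of 120, above 99.5% of all peaks, and 277 fragments (95% counting interval, exact Poisson, 245 to 312) over a control level of 1.31. Its summit was 48.6 kb from the outer start of NFE2L2, which was the nearest protein-coding start. The corresponding peaks near KEAP1 and NQO1, with folds of 9.30 and 16.6, lay 452 and 252 bp from the starts of ATG4D and WWP2.

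In the wider pathway, the strongest peaks were also away from the starts of the listed genes. ABCC3, a drug and conjugate export pump, had 17 peaks within 20 kb, and the strongest, with a fold of 108 and 345 fragments (310 to 383), was inside the gene, 14.9 kb from the nearer end. Inside SLC48A1, a peak with a fold of 109 and 698 fragments (647 to 752) was 14.0 kb from the start of that gene and 346 bp from that of RAPGEF3. ALDH3A1, an aldehyde dehydrogenase without a start peak, had one with a fold of 58.6 and 191 fragments (165 to 220), 4.81 kb from its nearer end.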
